A study of Mus musculus with 15 samples.

Results

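Transcripts of 10 genes of fibroblast growth factor (FGF) signalling were followed in mouse embryonic fibroblasts (MEFs) that were or were not driven towards adipocytes. The genes were the ligands Fgf2, Fgf7, Fgf10, Fgf18 and Fgf21, the receptors Fgfr1, Fgfr2, Fgfr3 and Fgfrl1, and the co-receptor Klb (β-klotho). They were taken by name from the 46603 Ensembl genes in the count files, and all 10 were among the 15997 genes that passed the filter on low counts. Fgf18 and Fgfr3 passed it only because of the condition in which each was high, and Klb because of both treated conditions. Calls that set those conditions against others are thus no independent support, and counts of called genes that hold them share this limit.

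The MEFs were wild-type BALB/c cells from 10.5 day old embryos, grown in DMEM with 10% serum. RNA was sequenced from 3 replicates (numbered 1, 3 and 4) in each of 5 conditions, namely day 0 (MEFD0), untreated day 3 (MEFD3min), treated day 3 (MEFD3plu), untreated day 5 (MEFD5min) and treated day 5 (MEFD5plu). For treatment, IBMX at 0.5 mM (which blocks phosphodiesterases and so raises cyclic AMP) was added to this medium for 3 days together with 10 µg/mL insulin, 1 µM dexamethasone (a glucocorticoid) and 10 µM rosiglitazone (a Pparg agonist), and the cells then spent 2 days without these factors. The comparisons ask which transcripts differ with treatment at the intermediate and terminal timepoints. The labels do not say that the replicates were separate cultures, so the adjusted p-values (p-adj) measure only the spread between these samples.

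FGF ligands bind receptor tyrosine kinases on the cell surface together with heparan sulphate, and the receptors signal through the adaptor Frs2 to the Ras and ERK kinases. Fgf2, Fgf7, Fgf10 and Fgf18 act near the cells that secrete them, with Fgf7 and Fgf10 binding mainly a splice form of Fgfr2. Fgf21 circulates as a hormone, binds heparan sulphate poorly and needs Klb beside Fgfr1 to signal, and adipose tissue is among its known targets. Fgfrl1 binds FGFs but lacks the kinase domain. The counts are per gene and do not separate the splice forms of the receptors.

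Of the 10 genes, 4 were higher in treated than in untreated cells at both days, namely Fgf21, Klb, Fgf10 and Fgfrl1, where 12.4% of all genes tested were called higher at both days. Their promoters are shown because these are the members that moved in 1 direction in both comparisons. Klb had passed the filter only through the treated conditions. Each sequence is the stretch of up to 250 bases before the RefSeq start site on the gene's strand (GRCm38.p6), left out where GENCODE M21 has an exon of the gene, and capitals mark motif matches. The windows are chr7:45615491-45615740 (minus strand) for Fgf21, chr5:65348161-65348313 (plus strand, 153 bases) for Klb, chr13:118714449-118714698 (plus strand) for Fgf10 and chr5:108693979-108694228 (plus strand) for Fgfrl1. The windows of Fgf21 and Klb lie just upstream of the M21 gene, whereas those of Fgf10 and Fgfrl1 lie in introns of longer M21 transcripts.
Fgf21: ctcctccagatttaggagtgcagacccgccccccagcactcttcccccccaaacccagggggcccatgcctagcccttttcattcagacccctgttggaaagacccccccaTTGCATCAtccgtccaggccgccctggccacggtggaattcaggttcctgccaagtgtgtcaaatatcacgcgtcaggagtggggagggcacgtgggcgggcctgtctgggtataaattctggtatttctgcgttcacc
Klb: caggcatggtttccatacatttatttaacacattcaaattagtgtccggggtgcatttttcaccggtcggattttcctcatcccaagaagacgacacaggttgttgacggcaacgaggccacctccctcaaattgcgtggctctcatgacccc
Fgf10: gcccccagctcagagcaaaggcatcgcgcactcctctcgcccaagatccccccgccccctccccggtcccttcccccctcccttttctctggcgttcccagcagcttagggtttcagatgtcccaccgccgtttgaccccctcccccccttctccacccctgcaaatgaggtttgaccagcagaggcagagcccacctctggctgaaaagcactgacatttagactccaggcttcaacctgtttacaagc
Fgfrl1: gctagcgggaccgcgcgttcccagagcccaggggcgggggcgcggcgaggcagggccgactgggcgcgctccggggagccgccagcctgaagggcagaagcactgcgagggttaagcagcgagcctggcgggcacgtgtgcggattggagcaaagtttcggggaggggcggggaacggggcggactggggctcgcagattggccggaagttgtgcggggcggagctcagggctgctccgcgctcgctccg

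Both strands of these windows were searched for AGGTCA (a nuclear receptor half-site), TTGCNNAA (a C/EBP site), TGATGNAA (a C/EBP-ATF response element), TGACGTCA (the cyclic AMP response element) and AGAACA (a glucocorticoid receptor half-site). These motifs occurred in 14.0%, 9.56%, 3.45%, 1.55% and 16.1%, respectively, of the 32851 RefSeq promoter windows of this length. The Fgf21 window held 1 match, TGATGNAA on the opposite strand, 139 to 132 bases before the start. The other 3 windows held none of these letters. RefSeq promoters were found for 9 of the 10 genes. Among the others, the Fgf7 window held AGGTCA, 47 to 42 bases before its start, and the Fgf2 window was exonic throughout. A match is a description of the sequence and was not tested as a site.

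Library totals ranged from 24030558 to 37281126 counts. Adipocyte markers (Adipoq, Fabp4, Plin1, Pparg, Cebpa, Lpl, Cd36 and Cidec) summed to 9563 to 13257 CPM (counts scaled to the size of the library) in the 6 treated samples and 42.7 to 65.5 CPM in the others, while all 9 fibroblast markers were detected in every condition. Fibroblast markers summed to 21924 to 33552 CPM in MEFD3min and to 10564 to 14454 CPM elsewhere, and MEFD3min replicates 3 and 4 differed more than any other pair of replicates (chi-square of the counts per degree of freedom 114, against 5.74 to 46.6). Hepatocyte markers, included as liver is a main source of Fgf21, never summed to more than 1.49 CPM, and Ttr was at 3 counts or fewer in every sample. Sums stayed at or below 6.97 CPM for macrophage, 2.23 CPM for endothelial, 1.19 CPM for epithelial and 2.32 CPM for skeletal muscle markers. They ran from 150.0 to 325 CPM for the neural list, with Sox10 at the floor, and from 16.9 to 74.7 CPM for the chondrocyte list, with Acan at the floor. The part of these cell types in the results was not tested, and in bulk RNA more cells of a type and more RNA per cell cannot be told apart.

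**Figure D1:**
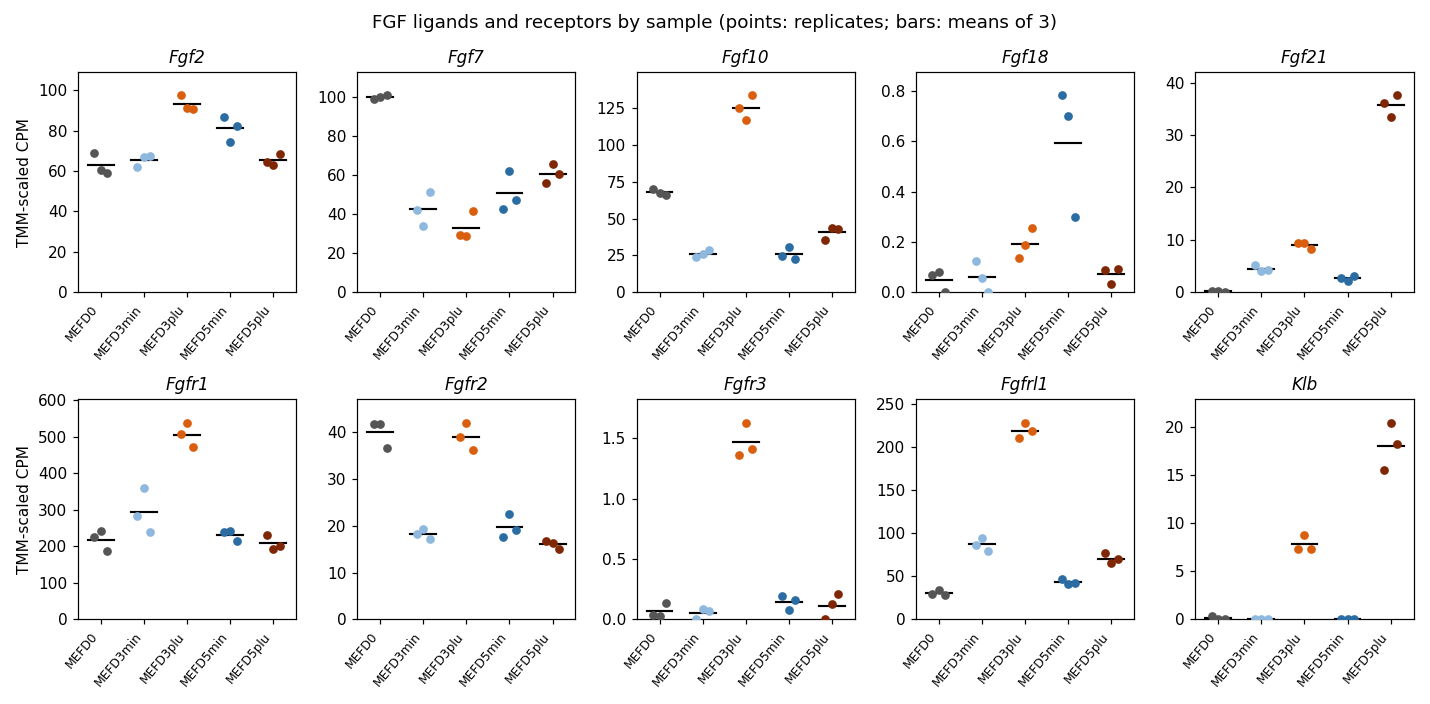
Level of each FGF gene in TMM-scaled CPM (vertical axes, each from 0 and on its own scale) in the 5 conditions, with a point per replicate and a bar at the mean of 3. Klb and Fgf21 peak in MEFD5plu (means of 18.1 and 35.7 CPM), whereas Fgf2, Fgf10, Fgfr1, Fgfr3 and Fgfrl1 peak in MEFD3plu.

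At day 3, treatment came with more transcript of most of these genes. In MEFD3plu/MEFD3min, 8 of the 10 were higher and none was lower (edgeR's quasi-likelihood test, Benjamini-Hochberg p-adj under 0.05), where 56.1% of all genes tested were called, 28.0% higher and 28.0% lower. The median log2 fold change was 1.21 over the 10 genes and -0.00057 over all genes tested. The 2 genes not called were Fgf7 and Fgf18. Fgfr3 and Klb, among the 8, passed the filter only through treated conditions, so the filter itself favoured a call as higher. With at least 10 counts required in every sample, 6 of the genes were tested and 5 were called, all higher. In that setting 7306 of all 12251 genes tested were called, and 50.4% of those calls were higher. At day 5, 2 days after the factors were removed, 4 of the 10 were higher, 3 were lower and 3 did not pass (MEFD5plu/MEFD5min), where 50.5% of all genes tested were called, 26.3% higher and 24.2% lower. The median was then 0.05 over the 10 genes and 0.01 over all genes. Of the genes called, Klb had passed the filter only through treated conditions and Fgf18 only through MEFD5min. Under scaling by total counts alone, 37.0% of the calls at day 5 were higher, in place of 52.1%. For 9 of the 10 genes the effects of the 2 days were unequal, with a larger value at day 3 for 7 (Fgf2, Fgf10, Fgf18, Fgfr1, Fgfr2, Fgfr3 and Fgfrl1) and a smaller one for Fgf7 and Fgf21, where 48.5% of all genes tested were called, 22.6% with a larger and 25.8% with a smaller value. For each gene the 5 conditions were also set in the order of their mean levels and neighbours were compared, beyond the comparisons described here, for MEFD5min with MEFD0 (46.4% of all genes tested called), MEFD3plu with MEFD0 (63.5%), MEFD5plu with MEFD0 (65.0%), MEFD5plu with MEFD3min (56.7%) and MEFD5min with MEFD3plu (62.7%).

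Among the ligands, Fgf21 (chr7:45613886-45615490, minus strand) had the largest range. Its level in replicates 1, 3 and 4 was 0.206, 0.292 and 0.0837 CPM in MEFD0, 5.17, 4.13 and 4.24 CPM in MEFD3min, and 9.45, 9.46 and 8.26 CPM in MEFD3plu. It was 2.65, 2.18 and 3.08 CPM in MEFD5min and 36.2, 33.4 and 37.5 CPM in MEFD5plu. Every treated sample thus lay above every untreated sample, and the 5 conditions did not overlap. Treatment came with a log2 fold change of 1.00 (SE 0.15, p-adj = 2.18e-05) at day 3 and of 3.74 (SE 0.159, p-adj = 6.51e-12) at day 5, where the mean level was 13.5-fold higher. The effect was larger at day 5, with a difference (day 3 minus day 5) of -2.74 (SE 0.216, p-adj = 2.90e-08). Each of the 4 steps in the order of its levels passed the test, from MEFD5plu over MEFD3plu, MEFD3min and MEFD5min to MEFD0. Fgf21 also rose without treatment, 23.3-fold from MEFD0 to MEFD3min (log2 fold change 4.51, SE 0.25, p-adj = 8.62e-11). The size of this rise rests on 6, 11 and 3 counts in MEFD0. It ran from 4.13 to 4.98 on the log2 scale when a sample was left out.

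Fgf10, a mesenchymal ligand known to act in the growth of adipose tissue, had its highest level at treated day 3 (chr13:118669791-118792115, plus strand). It measured 70.4, 67.7 and 66.3 CPM in MEFD0, 23.7, 26.0 and 28.8 CPM in MEFD3min, and 126, 117 and 134 CPM in MEFD3plu. In MEFD5min it measured 24.7, 30.4 and 22.8 CPM and in MEFD5plu 35.3, 43.9 and 42.8 CPM. Treated and untreated samples did not overlap on either day, yet the treated samples of day 5 lay below all samples of day 0. The treatment difference was 2.26 (SE 0.114, p-adj = 2.49e-11), or 4.79-fold, at day 3 and 0.65 (SE 0.111, p-adj = 0.000124), or 1.57-fold, at day 5. The day 3 effect was larger by 1.61 (SE 0.157, p-adj = 3.53e-07). The levels ordered as MEFD3plu, MEFD0, MEFD5plu, MEFD3min and MEFD5min, of which only the last neighbours did not differ (p-adj = 0.927). An antisense gene, Gm16263, covers 2.67% of the exon bases of Fgf10 and followed the same order, with means of 3.63 CPM in MEFD3plu, 2.24 in MEFD0, 1.42 in MEFD5plu, 0.432 in MEFD3min and 0.374 in MEFD5min.

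Fgf2, a heparin-binding mitogen of fibroblasts, moved in opposite directions at the 2 days (chr3:37348346-37410108, plus strand). Its values were 62.0, 66.8 and 67.2 CPM in MEFD3min and 97.4, 91.3 and 90.6 CPM in MEFD3plu. They were 86.6, 74.6 and 82.5 CPM in MEFD5min and 64.7, 63.0 and 68.4 CPM in MEFD5plu. Treated samples were thus all above the untreated ones at day 3 and all below them at day 5, and MEFD5plu lay within the range of MEFD0 (69.1, 60.8 and 59.1 CPM). The log2 fold change was 0.51 (SE 0.0805, p-adj = 3.76e-05) at day 3 and -0.31 (SE 0.0804, p-adj = 0.0037) at day 5, and the effects differed by 0.82 (SE 0.114, p-adj = 1.64e-05). MEFD3plu and MEFD5min were the 2 highest conditions and differed from each other (p-adj = 0.0419), and MEFD5min differed from the next, MEFD3min (p-adj = 0.0044). The comparison of MEFD3plu with MEFD5min was not repeated under other settings. MEFD3min did not differ from MEFD5plu (p-adj = 0.999), nor MEFD5plu from MEFD0 (p-adj = 0.578). The antisense gene Nudt6 shares 9.44% of the exon bases of Fgf2 and had 1.67 CPM in MEFD0 and 3.31 CPM in MEFD5plu, its lowest and highest means.

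Fgf7, also called keratinocyte growth factor, was highest before treatment (chr2:126034658-126091185, plus strand). It stood at 98.6, 99.7 and 101 CPM in MEFD0, at 42.3, 33.7 and 51.2 CPM in MEFD3min and at 29.0, 28.6 and 41.4 CPM in MEFD3plu. At day 5 it stood at 42.8, 61.8 and 47.3 CPM in MEFD5min and at 56.0, 65.5 and 60.7 CPM in MEFD5plu. All later samples lay below day 0, and treated and untreated samples overlapped on both days. Neither treatment difference passed the test, with -0.36 (SE 0.162, p-adj = 0.0694) at day 3 and 0.26 (SE 0.16, p-adj = 0.181) at day 5. Blocking on the replicate number, the day 3 difference passed (p-adj = 0.0378), as it did without MEFD3min replicate 3 (-0.50, p-adj = 0.0109) or MEFD3plu replicate 4 (-0.56, p-adj = 0.00764). The day 5 difference passed without MEFD5min replicate 3 (0.43, p-adj = 0.0439). The 2 effects differed by -0.62 (SE 0.227, p-adj = 0.0316), a call that was lost without MEFD3min replicate 1 or 4, MEFD3plu replicate 1 or 3, MEFD5min replicate 1 or 4, or MEFD5plu replicate 3 or 4 (from -0.62 to -0.46, p-adj from 0.0529 to 0.0872). It was also lost in a fit of only the 4 conditions compared (-0.59, p-adj = 0.0619). Only the step from MEFD0 to the next condition, MEFD5plu, passed in the order of its levels (log2 difference 0.71, p-adj = 0.00078).

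Fgf18, a ligand known from skeletal development, was near the limit of detection (chr11:33117430-33147400, minus strand). Its counts were 2, 3 and 0 at day 0. Untreated samples had 4, 2 and 0 counts at day 3 and 28, 18 and 11 at day 5, and treated samples had 4, 6 and 9 at day 3 and 3, 1 and 3 at day 5. Untreated day 5 was the only condition with more than 9 counts in every sample, and the gene passed the filter through it alone. The mean there was 0.593 CPM, against 0.0707 CPM in MEFD5plu, where no sample exceeded the floor of 3 counts. Taken against that floor in each library, the level in MEFD5plu was at least 6.44-fold lower (p-adj = 0.00156). At day 3 treated and untreated samples did not overlap on the CPM scale (0.136 to 0.254 against 0 to 0.125), but the fitted difference of 1.61 (SE 0.793) did not pass (p-adj = 0.0962) unless MEFD3min replicate 1 was left out (2.54, p-adj = 0.0466). The test of the difference between days gave p-adj = 0.00169.

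**Figure D2:**
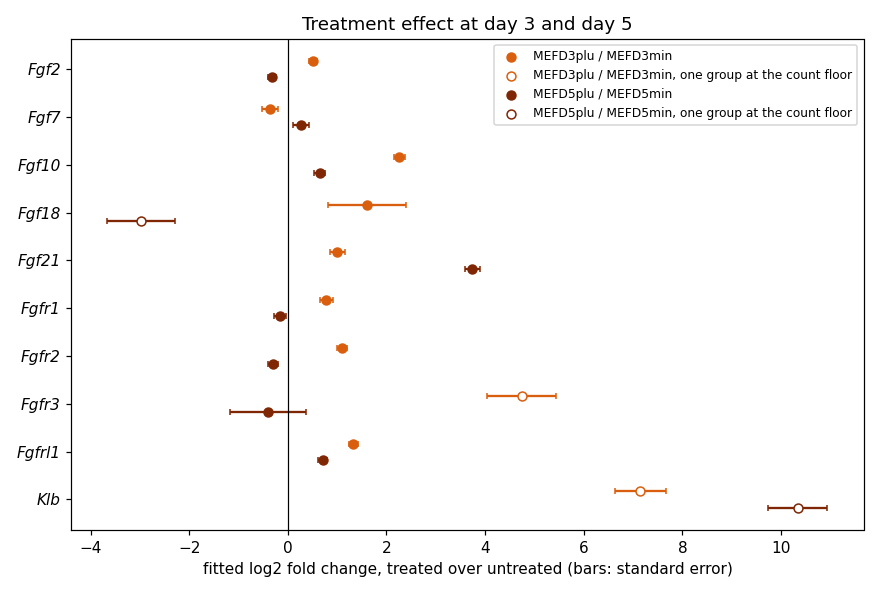
Fitted log2 fold change of treated over untreated cells (horizontal axis) for each FGF gene at day 3 and day 5, with bars for the standard error and open points where a condition had at most 3 counts in every sample, for which the fitted size is no measurement of the fold. Fgf21, Fgf10, Fgfrl1 and Klb lie to the right of 0 on both days, whereas Fgf2, Fgf18, Fgfr1, Fgfr2 and Fgfr3 pass from right to left between day 3 and day 5, and Fgf7 passes from left to right.

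Among the receptors, Fgfr1 is the one that signals with Klb for Fgf21 (chr8:25513654-25575718, plus strand). Its level was 224, 243 and 188 CPM in MEFD0, 283, 359 and 239.9 CPM in MEFD3min, and 507, 538 and 470.4 CPM in MEFD3plu. At day 5 it was 239, 243 and 216 CPM in MEFD5min and 232, 193 and 200.5 CPM in MEFD5plu. The 3 samples of MEFD3plu stood above all others, and the samples of day 5 overlapped with each other and with day 0. The treatment difference was 0.78 (SE 0.129, p-adj = 6.2e-05), or 1.72-fold, at day 3 and -0.16 (SE 0.129, p-adj = 0.332) at day 5. The effects differed by 0.94 (SE 0.182, p-adj = 0.000439). In the order of levels MEFD3plu was followed by MEFD3min (p-adj = 6.2e-05) and MEFD5min (p-adj = 0.0428), after which MEFD0 and MEFD5plu did not differ from their neighbours (p-adj = 0.608 and 0.658). An antisense gene, Gm16159, covers 1.66% of the exon bases of Fgfr1 and had at most 21 counts in a sample.

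Fgfr2, whose splice form on epithelia is the main receptor of Fgf7 and Fgf10, gave a different order (chr7:130162451-133123350, minus strand). It measured 41.9, 41.9 and 36.6 CPM in MEFD0, 18.3, 19.4 and 17.3 CPM in MEFD3min and 39.1, 42.1 and 36.2 CPM in MEFD3plu. It measured 17.7, 22.5 and 19.1 CPM in MEFD5min and 16.9, 16.3 and 14.99 CPM in MEFD5plu. MEFD0 and MEFD3plu overlapped, and both lay clear of the remaining conditions. The difference with treatment was 1.09 (SE 0.101, p-adj = 7.21e-08), or 2.14-fold, at day 3 and -0.30 (SE 0.103, p-adj = 0.0235) at day 5, with a difference between days of 1.39 (SE 0.144, p-adj = 7.25e-07). MEFD0 and MEFD3plu did not differ (p-adj = 0.763), nor did MEFD5min and MEFD3min (p-adj = 0.434) or MEFD3min and MEFD5plu (p-adj = 0.124). The day 5 call was lost without MEFD5min replicate 3, where the difference was -0.20 (p-adj = 0.134), and also without MEFD5plu replicate 3 (-0.31, p-adj = 0.0515) or 4 (-0.25, p-adj = 0.0986). The annotated gene runs into Ctbp2 on the same strand, which shares 3.04% of its exon bases.

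Fgfr3, known as a brake on cartilage growth, was detected above a few counts in MEFD3plu only (chr5:33721674-33737068, plus strand). The counts were 40, 52 and 50 there, against 0, 3 and 2 in MEFD3min, 1, 1 and 5 in MEFD0, 7, 2 and 6 in MEFD5min and 0, 4 and 7 in MEFD5plu. The lowest sample of MEFD3plu thus held 40 counts and the highest sample elsewhere 7. Taken against the floor of 3 counts per library in MEFD3min, Fgfr3 was at least 15.8-fold higher in MEFD3plu (mean 1.47 CPM, p-adj = 1.93e-05). At day 5 the means were 0.113 CPM treated and 0.145 CPM untreated (log2 difference -0.40, SE 0.776, p-adj = 0.697), and at these counts a difference was not detectable. The test between days gave p-adj = 0.000939. MEFD3plu exceeded the next condition, MEFD5min (p-adj = 0.000141), and no later neighbours in the order differed. The antisense gene G630022F23Rik, which covers 13.9% of the exon bases, had no count in any sample.

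Fgfrl1 separated all 5 conditions (chr5:108692382-108706924, plus strand). It was at 29.6, 33.9 and 28.4 CPM in MEFD0, 86.8, 95.1 and 79.5 CPM in MEFD3min and 210.3, 229 and 218 CPM in MEFD3plu. It was at 46.7, 40.8 and 41.9 CPM in MEFD5min and 76.7, 65.2 and 69.7 CPM in MEFD5plu. No pair of conditions overlapped. Treatment came with a difference of 1.33 (SE 0.0925, p-adj = 1.79e-09), or 2.51-fold, at day 3 and of 0.71 (SE 0.0929, p-adj = 8.32e-06), or 1.63-fold, at day 5, and the day 3 effect was larger by 0.62 (SE 0.13, p-adj = 0.000816). The order ran from MEFD3plu over MEFD3min, MEFD5plu and MEFD5min to MEFD0, and all 4 steps passed, the smallest being 0.31 between MEFD3min and MEFD5plu (p-adj = 0.00948).

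Klb, the co-receptor that gives Fgf21 its target cells, was nearly absent from untreated cells (chr5:65348314-65384007, plus strand). The counts were 10, 0 and 0 in MEFD0, 3, 1 and 1 in MEFD3min and 0, 1 and 0 in MEFD5min. They were 216, 281 and 260 in MEFD3plu, a mean of 7.83 CPM (SD 0.841, n = 3), and 521, 636 and 607 in MEFD5plu, a mean of 18.1 CPM (SD 2.49, n = 3). The 6 treated samples thus stood apart from the 9 untreated ones, in which 1 sample of day 0 held 10 counts and no other more than 3. Taken against 3 counts per library in the untreated samples, Klb was at least 84.2-fold higher at day 3 (p-adj = 3.56e-09) and at least 193-fold higher at day 5 (p-adj = 4.50e-10). From MEFD3plu to MEFD5plu it rose 2.31-fold (log2 fold change 1.21, SE 0.266, p-adj = 0.000798), a call that DESeq2 did not make (p-adj = 0.29). The difference between the effects of both days did not pass (p-adj = 0.15), but passed in a fit of only the 4 conditions compared (p-adj = 0.0275). The 3 untreated conditions did not differ in their order (p-adj = 0.508 and 0.376). The other klotho, Kl, the co-receptor of Fgf23, never exceeded 1 count.

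Levels of different genes can be compared only per length, so CPM were divided by the kilobases of merged exon. Merged exons need not match the length of the transcripts that the cells made. Ranks and shares between genes thus depend on the annotation, an error that the SDs leave out. Fgfr1 made up 85.0% ± 0.832 (SD, n = 3) of the summed level per kilobase of Fgfr1, Fgfr2, Fgfr3 and Fgfr4 in MEFD0 and between 92.4% and 94.3% in the other conditions. Fgfr2 made up 14.99% ± 0.782 at day 0, 5.72% ± 0.773 untreated and 6.87% ± 0.0563 treated at day 3, and 7.51% ± 0.799 untreated and 6.87% ± 0.509 treated at day 5. The share of Fgfr2 was thus highest at day 0, where its lowest sample (14.1%) lay above the highest of all later samples (8.13%). The 4 receptors summed to 26.0 CPM per kilobase at day 0, to 31.5 untreated and 55.2 treated at day 3, and to 25.5 untreated and 22.7 treated at day 5. Fgfr4 never exceeded 4 counts. Fgfrl1, which has no kinase and is not in these sums, stood at 11.01 CPM per kilobase at day 0, at 31.3 untreated and 78.8 treated at day 3, and at 15.5 untreated and 25.4 treated at day 5. Per kilobase it lay above Fgfr1 in every sample of MEFD3plu and MEFD5plu and below it in every sample of MEFD0 and MEFD5min. In MEFD3min it lay above Fgfr1 in replicates 1 and 4 and below it in replicate 3. Taken over all samples of a condition, the ranges of both genes overlapped in MEFD3min and, narrowly, in MEFD5plu. This order rests on the lengths used (9875 bases for Fgfr1 and 2782 for Fgfrl1). In CPM, Fgfr1 lay above Fgfrl1 in MEFD3plu (means of 505 and 219).

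The ligand with the highest level per kilobase changed with the condition. Fgf7 led in MEFD0 with 55.8% ± 1.56 (SD, n = 3) of the summed level of the 5 ligands, in MEFD3min with 39.1% ± 4.54 and in MEFD5min with 42.5% ± 5.21. Fgf10 led in MEFD3plu with 44.8% ± 0.667, and Fgf21 in MEFD5plu with 50.2% ± 2.58, up from 0.369% ± 0.199 in MEFD0. In untreated cells the lowest share of Fgf7 was close to the highest of Fgf2, at 34.3% and 32.5% on day 3 and 37.9% and 36.7% on day 5. By mean CPM, Fgf7 also led in MEFD0 and Fgf10 in MEFD3plu. Fgf2, however, lay above Fgf7 in MEFD3min (65.4 and 42.4 CPM) and MEFD5min (81.2 and 50.6 CPM). In MEFD5plu, Fgf21 (35.7 CPM) lay below Fgf2 (65.4), Fgf7 (60.7) and Fgf10 (40.7). The 5 ligands summed to 55.0 CPM per kilobase at day 0, to 33.2 untreated and 60.9 treated at day 3, and to 36.5 untreated and 74.8 treated at day 5. Klb reached 1.72 CPM per kilobase in MEFD3plu and 3.98 in MEFD5plu, where Fgfr1 stood at 51.1 and 21.1, and lay below Fgfr1 in every sample.

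**Figure D3:**
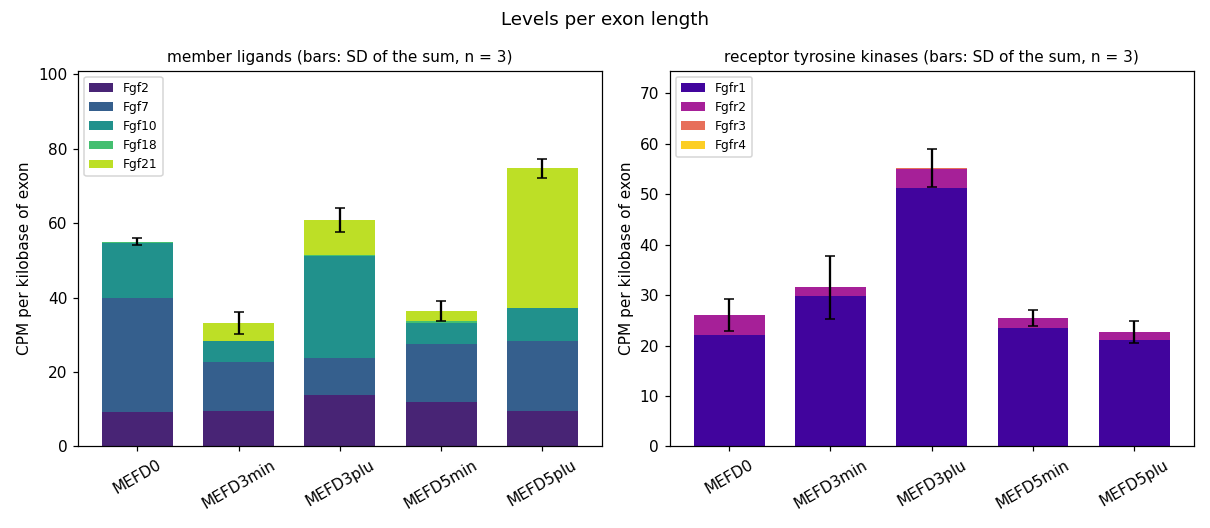
Level per kilobase of exon (vertical axes, CPM per kilobase) of the 5 ligands (left) and of the 4 receptor tyrosine kinases (right) stacked by condition, as means of 3 samples with bars for the SD of the sum. Fgf7 is the largest part of the ligand bar in MEFD0 (55.8%), Fgf10 in MEFD3plu (44.8%) and Fgf21 in MEFD5plu (50.2%), while Fgfr1 fills at least 85.0% of each receptor bar. The parts depend on the merged exon lengths used.

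Culture without the factors also moved these genes. From MEFD0 to MEFD3min, 3 of the 10 were higher (Fgf21, Fgfr1 and Fgfrl1) and 3 were lower (Fgf7, Fgf10 and Fgfr2), where 60.0% of all genes tested were called, 31.4% higher and 28.6% lower. The falls were 1.23 on the log2 scale for Fgf7 (SE 0.161, p-adj = 4.01e-06), 1.38 for Fgf10 (SE 0.111, p-adj = 1.09e-08) and 1.13 for Fgfr2 (SE 0.101, p-adj = 4.07e-08), each with no overlap between conditions. Fgfrl1 rose by 1.51 (SE 0.0946, p-adj = 4.13e-10). The rise of Fgfr1 was 0.43 (SE 0.129, p-adj = 0.00866), its conditions overlapped, and the call was lost without MEFD0 replicate 4 (0.33, p-adj = 0.0543) or MEFD3min replicate 3 (0.26, p-adj = 0.0603). From MEFD3min to MEFD5min, Fgf2 and Fgf18 were higher and Fgf21, Fgfr1 and Fgfrl1 were lower, where 42.8% of all genes tested were called, 21.3% higher and 21.5% lower. Fgf21 fell by 0.76 (SE 0.165, p-adj = 0.00128) and Fgfrl1 by 1.01 (SE 0.0931, p-adj = 1.58e-07), so that both remained above day 0. The fitted rise of Fgf18 was 3.18 (p-adj = 0.00138), and 4.12 without MEFD3min replicate 1. Fgf18 had passed the filter only through MEFD5min, so its call is no independent support. The fall of Fgfr1 (-0.34, SE 0.129, p-adj = 0.0428) was lost without MEFD3min replicate 1 (-0.37) or 3 (-0.17) and without MEFD5min replicate 1 (-0.36), 3 (-0.37) or 4 (-0.29), with p-adj from 0.0627 to 0.254. Scaling by total counts alone put 62.7% of all calls of this step on the higher side, in place of 49.7%.

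In the treated cells more FGF genes fell than rose after the factors were removed. From MEFD3plu to MEFD5plu, 6 of the 10 were lower (Fgf2, Fgf10, Fgfr1, Fgfr2, Fgfr3 and Fgfrl1), 3 were higher (Fgf7, Fgf21 and Klb) and Fgf18 did not pass (p-adj = 0.124), where 63.0% of all genes tested were called, 33.8% higher and 29.2% lower. The median log2 fold change was -1.28 over the 10 genes and 0.06 over all genes. Fgfr3, among the lower genes, had passed the filter only through MEFD3plu. All 4 receptors fell, with log2 fold changes of -1.28 for Fgfr1 (SE 0.131, p-adj = 2.99e-07), -1.28 for Fgfr2 (SE 0.102, p-adj = 1.37e-08), -1.63 for Fgfrl1 (SE 0.0933, p-adj = 2.36e-10) and -3.66 for Fgfr3 (SE 0.621, p-adj = 7.46e-05). The fitted value of Fgfr3, which rests on few counts in MEFD5plu, was -4.47 without replicate 4 of that condition. Fgf10 fell by 1.63 (SE 0.111, p-adj = 2.09e-09) and Fgf2 by 0.51 (SE 0.0805, p-adj = 3.53e-05). The genes that rose were Fgf21 (3.94-fold, log2 1.98, SE 0.141, p-adj = 3.82e-09), Klb (above) and Fgf7 (0.88, SE 0.161, p-adj = 0.000162).

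Another 89 genes of the pathway were listed by role, and 71 of them passed the filter on low counts. At day 3, 23 of the 71 (32.4%) were higher in treated cells, 28 (39.4%) were lower and 20 did not pass, where 28.0% of all genes tested were higher and 28.0% lower. At day 5, 9 (12.7%) were higher, 36 (50.7%) were lower and 26 did not pass, where 26.3% of all genes were higher and 24.2% lower. The counts by role stand against the same shares of all genes, and several lie near them. Of the 17 other FGF genes, 11 had at most 3 counts in every sample and 5 passed the filter, of which 1 was higher and 3 lower at day 3, and 1 higher and 2 lower at day 5. Fgf14, an intracellular FGF homolog that binds sodium channels, was the one that rose on both days, from 0.169 to 5.68 CPM at day 3 (log2 5.00, p-adj = 2.39e-08) and from 0.133 to 1.20 CPM at day 5 (3.24, p-adj = 3.51e-05). An antisense gene covers 5.26% of its exon bases. Fgf13, of the same intracellular group, had 0.586 CPM in MEFD3min and 0.0376 CPM in MEFD3plu (log2 -3.72, p-adj = 0.000144). Fgf5, a ligand known for ending hair growth, had 0.472 CPM in MEFD5min and at most 3 counts in each sample of MEFD5plu (p-adj = 4.96e-05). In these comparisons the lower condition of Fgf14, Fgf13 and Fgf5 had a mean of at most 0.169 CPM. The filter may thus have kept these genes through conditions in which they were high. Their calls, and the counts that hold them, are therefore no independent support.

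Of the 14 other receptors, co-receptors and binding proteins found in the files, 11 passed the filter. At day 3, 5 of them were higher and 3 lower (median log2 fold change 0.14), and at day 5, 1 was higher and 5 were lower (median -0.21). Flrt1, a membrane protein that binds FGF receptors, rose most on both days, by 2.74 at day 3 (SE 0.323, p-adj = 1.40e-06) and by 1.22 at day 5 (SE 0.338, p-adj = 0.00631). The heparan sulphate proteoglycan Sdc2 fell most at day 3 (-1.16, SE 0.0989, p-adj = 2.45e-08). N-cadherin (Cdh2), which can associate with Fgfr1, was higher at day 3 (0.54, p-adj = 0.000388) and fell most at day 5 (-0.97, SE 0.11, p-adj = 1.65e-06).

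Of 19 adaptors and kinases downstream of the receptors, 5 were higher and 6 lower at day 3 (median -0.08), and 1 was higher and 11 were lower at day 5 (median -0.36). At day 3 the GTPase gene Nras fell most (-0.83, SE 0.0721, p-adj = 3.04e-08). The adaptor Shc1 was the gene higher at day 5 (0.48, SE 0.0692, p-adj = 2.33e-05), and Cbl, a ubiquitin ligase that turns over receptors, fell most (-0.75, SE 0.179, p-adj = 0.00232).

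Of 12 feedback inhibitors of the pathway, 3 were higher and 6 lower at day 3 (median -0.24), and 3 higher and 5 lower at day 5 (median -0.16). The phosphatase gene Dusp4 rose most at day 3 (2.46, SE 0.132, p-adj = 6.09e-11) and the receptor antagonist Il17rd fell most (-2.46, SE 0.585, p-adj = 0.00173), at levels of 0.696 CPM or less. The filter may have kept Il17rd through conditions in which it was high, so its call is no independent support. At day 5 the Sprouty gene Spry3 rose most (0.65, SE 0.0991, p-adj = 4.33e-05) and the phosphatase gene Dusp5 fell most (-1.27, SE 0.104, p-adj = 3.54e-08), with 22.1% of its exon bases shared with an antisense gene.

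Of 12 genes known as transcriptional targets of FGF and ERK signalling, 6 were higher and 5 lower at day 3 (median 0.06), and 2 were higher and 7 lower at day 5 (median -0.62). Myc, a growth regulator, rose at day 3 (1.56, SE 0.104, p-adj = 1.05e-09) and was lower at day 5 (-0.83, p-adj = 4.34e-06). The ETS factor Etv4 fell from 63.9 to 11.05 CPM at day 3 (-2.53, SE 0.0979, p-adj = 1.11e-12) and was lower at day 5 as well (-1.26, p-adj = 6.50e-09). At day 5, Etv1 rose most (0.36, SE 0.0803, p-adj = 0.00132) and Ier3, an immediate early gene, fell most (-2.03, SE 0.127, p-adj = 1.18e-09). These are transcripts only, and no measure of receptor activity was made.

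Of 14 genes for heparan sulphate, the glycan that ligands such as Fgf2 need at the receptor, 12 passed the filter. At day 3, 3 were higher and 5 lower (median -0.23), and at day 5, 1 was higher and 6 were lower (median -0.39). The secreted sulphatases Sulf1 and Sulf2, which trim sulphate from these chains, moved in opposite directions. Sulf2 rose from 45.4 to 125 CPM at day 3 (1.47, SE 0.121, p-adj = 1.68e-08) and from 23.9 to 51.4 CPM at day 5 (1.10, SE 0.123, p-adj = 1.38e-06). The antisense gene Ncoa3 covers 2.62% of the exon bases of Sulf2. Sulf1 fell from 52.9 to 6.84 CPM at day 3 (-2.95, SE 0.153, p-adj = 3.92e-11) and was lower at day 5 (-0.81, p-adj = 0.000108). Ndst1, a sulphotransferase of the growing chain, fell most at day 5 (-0.90, SE 0.159, p-adj = 0.000178).

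**Figure D4:**
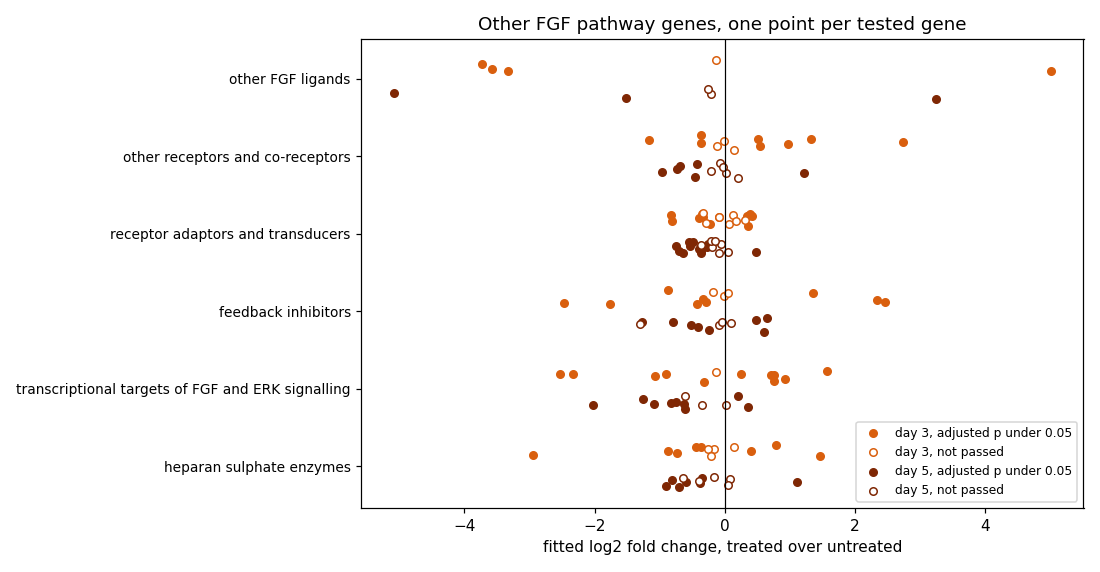
Fitted log2 fold change of treated over untreated cells (horizontal axis) for the 71 tested pathway genes outside the 10, by role, with filled points for genes that passed the test and open points for the others. At day 5 more points lie left of 0 than right of it (36 lower and 9 higher calls), and the leftmost point, Fgf5 at day 5, has a condition at the floor of 3 counts.

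The genes whose levels followed each member most closely were taken from 11453 genes whose mean log2 CPM was 1 or more, by Pearson's r over the 15 samples. Fgf21 was followed by Casp4 (r = 0.983) and Steap4 (r = 0.976), and Klb by Echdc1 (r = 0.980) and Gpd1 (r = 0.977). Casp4 is an inflammatory caspase, Steap4 a metalloreductase of adipose tissue and Gpd1 the enzyme that makes glycerol phosphate for triglycerides. Fgf10 was followed by Imp4 (r = 0.981) and Mpv17l2 (r = 0.979), Fgf7 by Ccng1 (r = 0.982) and Caprin1 (r = 0.974), and Fgf2 by Sema6d (r = 0.914) and Jarid2 (r = 0.901). Among the receptors, Fgfr1 was followed by Sidt2 (r = 0.994) and Kremen1 (r = 0.987), Fgfr2 by Mgat4b (r = 0.983) and Opa3 (r = 0.980), and Fgfrl1 by Cpeb4 (r = 0.991) and Zfp658 (r = 0.989). Fgfr3 was followed by Plekhf1 (r = 0.917) and Btg1 (r = 0.907), and Fgf18 by Pdlim5 (r = 0.845) and Fam117b (r = 0.835), the lowest values of the 10 genes. The 15 samples fall into 5 conditions and were normalised together, so these values describe a shared pattern over 5 conditions.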

How the data were processed

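RNA-Seq of MEFs was analysed in 15 samples, 3 per condition. For each sample the authors deposited the raw read counts per Ensembl gene, neither normalised nor pooled over replicates. The labels name GRCm38/mm10, TopHat2 2.1.0, HTSeq and DESeq2, but neither they nor the methods give the annotation release, the strand setting or the handling of reads with several matches. They also disagree on whether the library kit kept the strand, so reads of a gene and of an antisense gene may not have been separated, and such overlaps are given beside the genes concerned.

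Of 46603 identifiers, 46091 had a name in GENCODE M21 (GRCm38). In R 4.3.3, edgeR 4.0.16 kept 15997 genes (filterByExpr on the 5 conditions), scaled the counts by TMM and fitted all 15 samples in 1 quasi-likelihood model without covariates (glmQLFit, glmQLFTest). A gene was called at a Benjamini-Hochberg p-adj under 0.05 over all genes tested. The treatment by day interaction is the day 3 effect minus the day 5 effect. CPM are counts scaled to the TMM-adjusted library size, and errors are SDs over 3 samples or standard errors of the fit. A condition with at most 3 counts in every sample was taken as at the floor, and folds against it use 3 counts in each library. Floors cover counting error only. Levels per kilobase use the merged exons of M21, and motifs were searched in RefSeq promoters of GRCm38.p6 outside M21 exons of the gene.

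The alternatives were DESeq2 1.42.0, scaling by its size factors or by total counts alone, a fit without the other conditions, no filter, a minimum of 10 counts in every sample (12251 genes), a block for the replicate number, and leaving out each sample. The further comparisons run only to order neighbouring conditions were not recomputed under these alternatives. Same-numbered samples of MEFD3plu and MEFD3min deviated together from their condition means (r = 0.143, 0.228 and 0.36). Those of MEFD3min and MEFD0 did so less (r = 0.0837, 0.132 and 0.18), and in the other comparisons not every value was positive. No source says what the numbers share. The main fit therefore did not pair the samples, and the block for the replicate number was run only as an alternative. The steps were tested on simulated counts. The genes, lists and tests were chosen with earlier results of these data known. The genes named from each list are the called ones with the largest rise and the largest fall in each treatment comparison, except for 1 gene that is not reported here, and those named beside a member are the 2 with the highest Pearson's r (log2 CPM, prior count 2). No paper table, qPCR or staining result was used here.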

Additional observations from a re-analysis of the deposited data

Results flagged for a closer look

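The effect of treatment at day 3 differed from that at day 5 for 9 of the 10 genes, by the interaction term of edgeR's quasi-likelihood model, where 48.5% of all genes tested were called (22.6% with a larger and 25.8% with a smaller value at day 3). The differences, day 3 minus day 5 on the log2 scale, were 0.82 for Fgf2, 1.61 for Fgf10, 0.94 for Fgfr1, 1.39 for Fgfr2 and 0.62 for Fgfrl1. They were -0.62 for Fgf7 and -2.74 for Fgf21. The call of Fgf7 (p-adj = 0.0316) was lost when any of several single samples was left out, and under total counts alone (p-adj = 0.102). For Fgf18 (4.58) and Fgfr3 (5.14) a condition was at the floor of 3 counts, so that the sizes depend on the fit. Each of these genes passed the filter only through the condition in which it was high. Without MEFD3min replicate 1 the value of Fgf18 was 5.52, and that of Fgfr3 was 5.74 without MEFD3min replicate 3 and 5.96 without MEFD5plu replicate 4. Klb did not pass (-3.19, p-adj = 0.15). Under scaling by total counts alone 59.5% of all calls had a larger value at day 3, in place of 46.7%.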

How the results depend on the processing

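Of the results recomputed under another setting, 374 kept direction and side of the threshold, 7 lost their call, 5 gained one and 2 turned, and with a sample left out 388 kept both, 18 lost a call, 5 gained one and 9 turned. With at least 10 counts in every sample only 6 of the 10 genes were tested, and 5 were called at day 3, 4 at day 5 and 3 from MEFD3min to MEFD5min. Of the 12251 genes tested in that setting, 7306, 6904 and 6021 were called in these comparisons, respectively. Under total counts alone Fgf2 from MEFD0 to MEFD3min was -0.071 and Fgf10 from MEFD3min to MEFD5min 0.092, neither called. That scaling moved the median of all genes by -0.16 at day 5, 0.18 in the interaction and -0.12 from MEFD0 to MEFD3min. Blocking on the replicate number, 9 genes in place of 8 were called at day 3, Fgf7 being added, and no other call changed. Over all genes tested, the block gave 9452 calls at day 3 in place of 8967.

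Leaving out samples gave 8 to 9 genes called at day 3, 6 to 7 at day 5, 8 to 9 in the interaction, 5 to 7 from MEFD0 to MEFD3min, 4 to 6 from MEFD3min to MEFD5min and 9 from MEFD3plu to MEFD5plu in each case. In the same order, calls over all genes ran from 8157 to 9283, 6818 to 7692, 7032 to 8498, 8860 to 9692, 5937 to 7286 and 9146 to 9950. These fits tested 16388 to 16481 genes. The values that turned ran from -1.22 to 0.18 for Fgfr3 at day 5, from -0.14 to 0.071 for Fgf10 between MEFD3min and MEFD5min, and, between MEFD0 and MEFD3min, from -0.62 to 0.90 for Fgf18, from -0.98 to 0.70 for Fgfr3 and from -1.57 to 3.87 for Klb. Apart from Fgf10 these rest on a few counts per sample. The fitted 3.87 for Klb (p-adj = 0.0413) came without MEFD0 replicate 1, the untreated sample with 10 counts, and both conditions were then at the floor. Without the filter Fgfr2 at day 5 was no longer called (p-adj = 0.0521), and Fgf7 was called at both days (p-adj = 0.0024 and 0.0477) and Klb in the interaction (p-adj = 0.0266). Under total counts alone the calls of Fgf7 in the interaction (p-adj = 0.102) and of Fgfr1 in both untreated steps (p-adj = 0.0698 and 0.188) were lost. In a fit of only the samples compared, Fgf7 in the interaction (p-adj = 0.0619) and Fgfr1 from MEFD3min to MEFD5min (p-adj = 0.112) were not called, while Klb in the interaction was (p-adj = 0.0275). The causes were not tested. Depth limits Fgf18, Fgfr3 and untreated Klb, for which 3 counts or fewer cannot be told from none. It also limits the folds of Fgf21 against day 0, where the counts were 6, 11 and 3.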
